A study of Homo sapiens with 22 samples.

Results

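The CC chemokines described here are CCL2, CCL3, CCL4, CCL7 and CCL20, taken by name from the deposited table across its 22 libraries, and all 5 had a row among 36859 genes. The libraries were made from RPTEC, a human renal proximal tubule epithelial cell line immortalized with hTERT, in 11 groups of 2 replicates. In media with 2% serum the groups were unmodified cells (WT), WT cells given TGF-β at 10 ng/ml for 72 h, the CRISPR SETD2 knockout clones KO1 and KO2, and cells labelled KO2 rescue. Of these, all but the TGF-β group are recorded at a time of 0 h. In media with 10% serum the groups were Rescue1 and Rescue2, which are clones of knockout cells carrying lentiviral SETD2, and WT cells transduced with eGFP (the vector control), SOX2, OCT2 or PRRX1. Each knockout or rescue group is 1 clone, the eGFP, SOX2, OCT2 and PRRX1 cells were selected in bulk, and serum and transduction changed together between WT and eGFP. No label says that the 2 replicates of a group were separate cultures, so p-values measure the spread between these libraries, which may be technical.

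CC chemokines are small secreted proteins that draw leukocytes along a gradient by binding G protein-coupled receptors on them. CCL2 and CCL7 attract monocytes through CCR2, CCL3 and CCL4 attract macrophages and T cells, and CCL20 attracts cells that carry its receptor CCR6, among them Th17 cells and immature dendritic cells. Tubule epithelial cells release CCL2 and CCL20 during injury and inflammation, usually after IL-1, TNF or Toll-like receptor signals that act through NF-κB.

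The genes lie in separate places of GRCh38 (GENCODE 44). CCL2 (ENSG00000108691) spans 34255274 to 34257208 on chromosome 17, plus strand, and CCL7 (ENSG00000108688) follows it on the same strand from 34270221 to 34272242, 13012 bases further on. CCL3 (ENSG00000277632) spans 36088256 to 36090169 on the minus strand of the same chromosome and CCL4 (ENSG00000275302) 36103827 to 36105621 on the plus strand, with 13657 bases between them. CCL20 (ENSG00000115009) spans 227805739 to 227817564 on chromosome 2, plus strand. CCL3 and CCL4 have near-identical copies (CCL3L1, CCL3L3, CCL4L1 and CCL4L2), which were not analysed here and with which reads could have been shared, so the levels of CCL3 and CCL4 are uncertain.

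RefSeq promoter entries were matched for 3 of the 5 genes. The group mean of each of these was highest in KO1, for CCL7 from libraries at 28.3 and 0 normalized counts. The 250 bases before the start of each RefSeq entry are shown for that reason. These starts are the first bases of the canonical GENCODE transcripts (227813842 for CCL20, 36090143 for CCL3 and 34270221 for CCL7), and the gene spans of CCL20 and CCL3 given above begin 8103 and 26 bases before them, with other transcripts. They are read 5′ to 3′ on the gene's strand of GRCh38.p14, at chr2:227813592-227813841 for CCL20, chr17:36090144-36090393 for CCL3 (the most upstream of 3 entries) and chr17:34269971-34270220 for CCL7.
CCL20: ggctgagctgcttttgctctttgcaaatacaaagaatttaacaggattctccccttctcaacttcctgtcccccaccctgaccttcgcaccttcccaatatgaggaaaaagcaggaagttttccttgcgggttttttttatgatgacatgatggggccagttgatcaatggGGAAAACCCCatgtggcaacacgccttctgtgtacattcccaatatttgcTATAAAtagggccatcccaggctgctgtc
CCL3: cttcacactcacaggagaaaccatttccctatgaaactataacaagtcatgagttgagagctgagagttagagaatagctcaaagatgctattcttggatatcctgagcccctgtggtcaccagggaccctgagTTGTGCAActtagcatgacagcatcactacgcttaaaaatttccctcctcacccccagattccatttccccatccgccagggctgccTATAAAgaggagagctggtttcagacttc
CCL7: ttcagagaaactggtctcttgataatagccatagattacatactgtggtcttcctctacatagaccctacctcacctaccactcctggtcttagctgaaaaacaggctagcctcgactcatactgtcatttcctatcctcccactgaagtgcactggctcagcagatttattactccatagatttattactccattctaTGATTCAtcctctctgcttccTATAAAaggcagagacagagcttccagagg
Capitals mark matches to 4 motifs that were chosen after the sequences were seen. The TATA box letters TATAAA, searched on the gene's strand, stand 29 to 24 bases before the start of CCL20 and of CCL3 and 30 to 25 bases before that of CCL7, and 6.8% of all 35116 windows of this length hold them. The NF-κB consensus, searched on both strands, matched in CCL20 only, at GGAAAACCCC from 79 to 70 bases before the start (9.96% of all windows hold a match). The C/EBP letters TTGCNNAA on either strand matched in CCL3 only, 116 to 109 bases before the start (9.05% of windows). The AP-1 letters TGANTCA on either strand matched in CCL7 only, 51 to 45 bases before the start (6.57% of windows). No match overlaps another, and a match is a description of letters and not of a bound site.

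Libraries held about 7692965 to 19022298 reads, as approximated from the deposited values, and 3 reads corresponded to 2.46 to 4.72 normalized counts. A level at 0 below therefore allows up to that floor, for counting error only. SETD2, the gene targeted by CRISPR, had 1852 and 2061 normalized counts in the WT libraries, 1046 and 1130 in KO1, 1050 and 1052 in KO2, and 9764 to 10445 in Rescue1 and Rescue2. In the libraries labelled KO2 rescue it had 834.5 and 819.6, a log2 change of -0.35 ± 0.07 (SE) against KO2, so SETD2 mRNA went against that label. The second KO1 library stood apart, with 14082 genes above 0 against 14709 to 16115 in the others and 1519 genes between 0 and 8 normalized counts against 2353 to 3448. The value taken as 1 read in it was shared by 12 genes, against 28 to 105 in the others. Its read number, the highest of those above, and its floor are therefore uncertain. The leukocyte markers TYROBP, CD3E, MS4A1 and NKG7 were at 0 in every library, AIF1 was not analysed here, and the 11 leukocyte markers with a row summed to 21.1 to 398 normalized counts per library. The tubule epithelial markers summed to 12358 to 33022. Fewer cells of a type and less RNA per cell cannot be told apart in bulk libraries.

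Levels are given as normalized counts, which correct for library size and not for transcript length. Differences were tested on log2(normalized count + 1) with limma in 1 fit of all libraries over 14585 genes, and calling a gene took a log2 change over 1 in size with a Benjamini-Hochberg adjusted p below 0.05. CCL2, CCL3, CCL4 and CCL20 reached 10 normalized counts in 2 or more libraries, as the filter asked, and CCL7 did not. CCL3 and CCL4 passed only through their knockout libraries, so their calls are descriptions. In comparisons with a knockout, only CCL2 and CCL20 can therefore be set beside the share of all genes called.

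**Figure D1:**
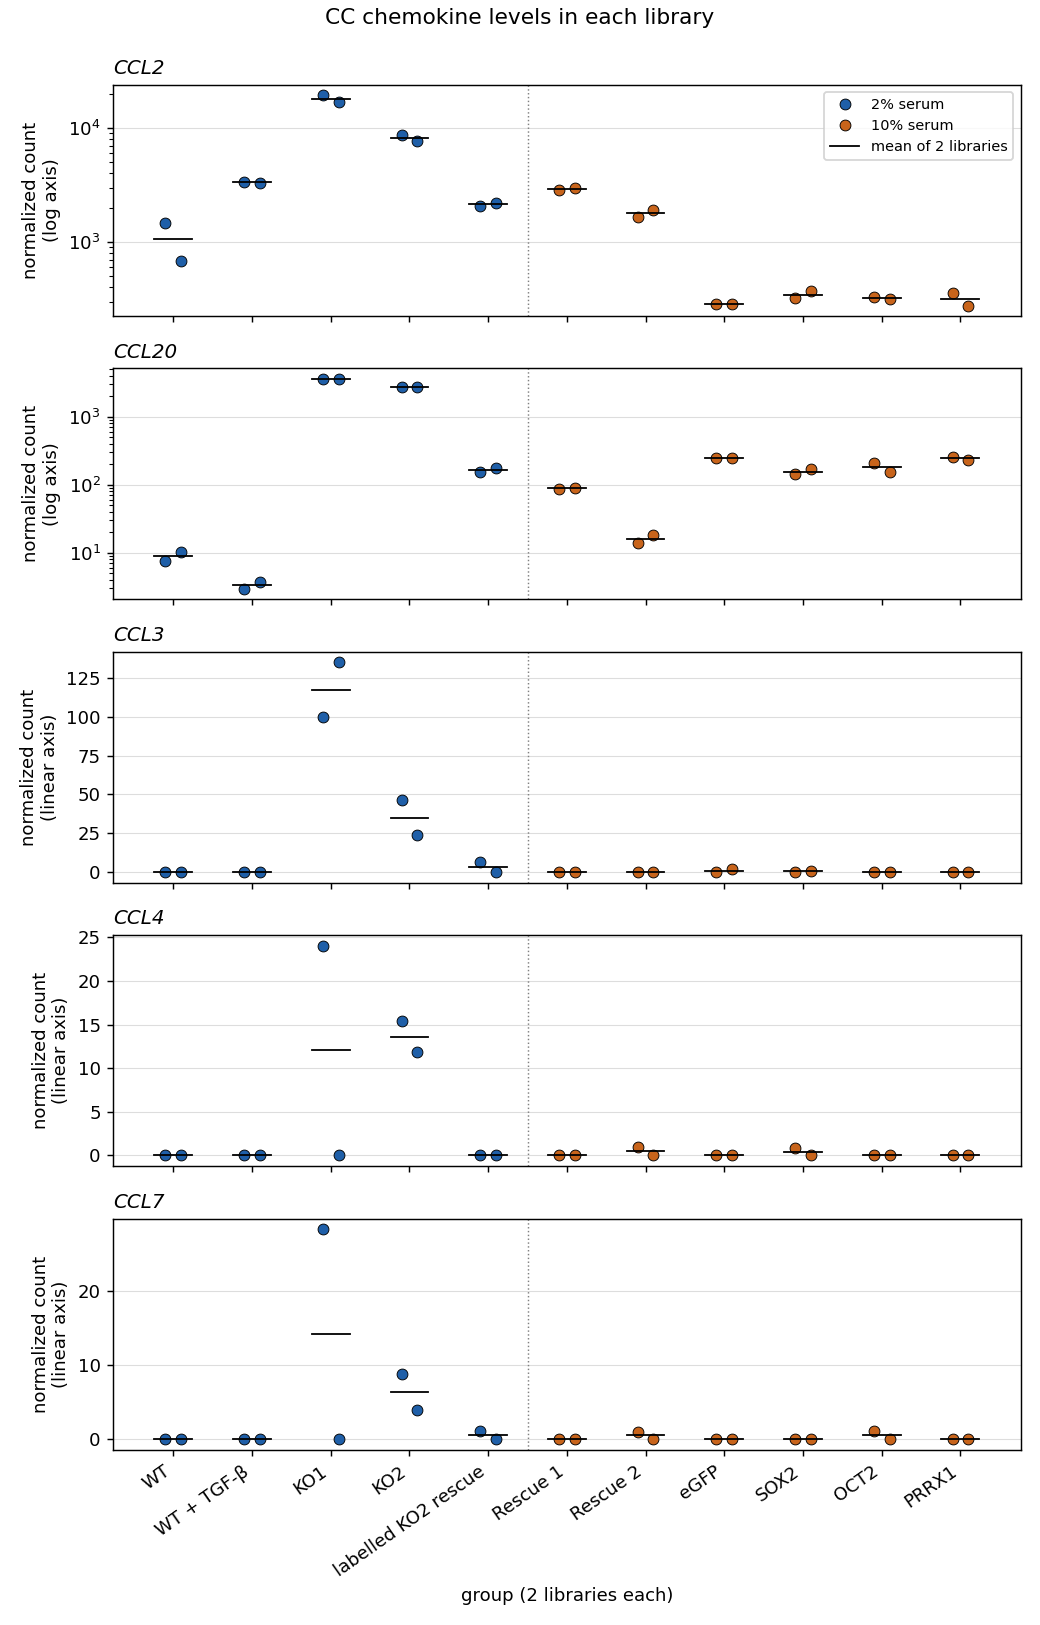
Normalized counts of the 5 CC chemokines in each of 22 libraries (log axis for CCL2 and CCL20, linear axis from 0 for CCL3, CCL4 and CCL7), coloured by serum, with a line at each group mean. The KO1 and KO2 libraries stand above every other library for CCL2, CCL20 and CCL3, and 1 of the 2 KO1 libraries is at 0 for CCL4 and CCL7.

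CCL2 and CCL20 were the members read in every library, and both were higher in the SETD2 knockout clones than in WT. CCL2, the main monocyte attractant of the family, had 1456 and 681.1 normalized counts in WT, 19293 and 16913 in KO1, and 8737 and 7623 in KO2. The groups did not overlap, although the WT libraries lay further apart than those of any other group on the log scale. Group means were 1069 ± 548 (SD, n = 2) in WT, 18103 ± 1683 in KO1 and 8180 ± 788 in KO2, which put KO1 at 16.9 and KO2 at 7.65 times WT. The log2 change was 4.18 ± 0.24 (SE, adjusted p = 2.66e-09) in KO1 and 3.03 ± 0.24 (adjusted p = 1.61e-07) in KO2. Leaving out 1 WT library moved it to between 3.63 and 4.73 in KO1 and between 2.49 and 3.58 in KO2, with the higher values without the first WT library.

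CCL20, the CCR6 ligand, was low in WT at 7.71 and 10.3 normalized counts, or about 20.6 reads in all. It had 3601 and 3582 normalized counts in KO1 and 2757 and 2742 in KO2. The knockout libraries were far above both WT libraries and close to each other within a clone. The means put KO1 at 398 and KO2 at 305 times WT. On the log2 scale the change was 8.50 ± 0.22 (adjusted p = 5.52e-13) in KO1 and 8.11 ± 0.22 (adjusted p = 1.88e-12) in KO2.

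The related ligands CCL3 and CCL4 were at 0 in WT. CCL3 had 99.8 and 135 normalized counts in KO1 and 46.1 and 23.7 in KO2. Against the WT floor of 3 reads per library, KO1 was at least 44.8-fold higher, and the same bound for KO2 was at least 13.3-fold. Both clones lay above every other library. CCL3 was called in KO1 (log2 change 6.87 ± 0.82, adjusted p = 8.6e-06) and in KO2 (5.09 ± 0.82, adjusted p = 0.000227).

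CCL4 had 24.0 and 0 normalized counts in KO1 and 15.4 and 11.8 in KO2. The KO2 libraries were both above WT, while 1 KO1 library was higher than these and the other was at 0 like WT. KO2 was at least 5.18-fold higher than the WT floor and was called (3.86 ± 1.04, adjusted p = 0.0108), and this call was lost without the first KO2 library (3.68, adjusted p = 0.0614). KO1 was not called (2.32 ± 1.04, adjusted p = 0.0913), and its change was 4.65 without its second library and 0 without its first. That second KO1 library is the one with few genes at low counts, and the part of this in its 0 for CCL4 was not tested.

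CCL7, the neighbour of CCL2 and a second CCR2 ligand, had 28.3 and 0 normalized counts in KO1 and 8.70 and 3.86 in KO2, and was at 0 in WT and WT with TGF-β. Its 0 again fell in the second KO1 library. It was tested only with no filter on low values, over 21519 genes, where the log2 change was 2.44 ± 1.01 for KO1 (adjusted p = 0.0957) and 2.78 ± 1.01 for KO2 (adjusted p = 0.0715). Elsewhere CCL7 was at 0 or near 1 normalized count, with 1.05 in 1 library labelled KO2 rescue, 0.956 in 1 Rescue2 library and 1.02 in 1 OCT2 library.

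Against WT, 3 of the 4 tested members were called higher in KO1 and 4 of 4 in KO2, and none was called lower. These counts include the calls of CCL3 and CCL4, which are descriptions. CCL2 and CCL20 were called in both clones. The calls over all genes, in either direction, were 25.0% for KO1 and 16.3% for KO2. Scaling every library to the same total moved the median log2 change of all genes to -0.39 in KO1 and -0.2 in KO2, and to 0.5 at most, in Rescue2 against KO1. The members called in KO1 and KO2 against WT were called in the same direction with that scaling.

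Between the knockout clones the members differed in size. CCL2 was higher in KO1 than in KO2 by 1.15 ± 0.24 on the log2 scale (adjusted p = 0.00403), and the libraries of the clones did not overlap. This call was lost when every library was scaled to the same total (0.96), with quantile normalization (0.99) and in a fit of only the 4 libraries compared (adjusted p = 0.061). That last fit called 1 of all 14585 genes. For CCL20 the difference was 0.39 ± 0.22 (95% interval -0.09 to 0.86, adjusted p = 0.273). CCL3 was 1.78 ± 0.82 higher in KO1 (interval 0.02 to 3.54, adjusted p = 0.166), and CCL4 differed by -1.53 ± 1.04 (interval -3.75 to 0.69, adjusted p = 0.362). CCL2 was therefore the 1 member called of 4, where 6.97% of all genes were called.

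TGF-β treatment, which turns these epithelial cells toward a mesenchymal state, was applied to ask what a known inducer of that change does. CCL2 had 3385 and 3284 normalized counts with TGF-β against 1456 and 681.1 in WT, and CCL20 had 2.95 and 3.79 against 7.71 and 10.3. The ligands moved in opposite directions, with no overlap between treated and untreated libraries for either. CCL2 rose by 1.74 ± 0.24 (adjusted p = 0.000115), at 3.12 times WT, and the change lay between 1.19 and 2.29 when 1 WT library was left out. CCL20 fell by 1.19 on the log2 scale (SE 0.22, adjusted p = 0.00157), from about 20.6 to 6.3 reads in the 2 libraries together, and it was not called with a pseudocount of 5 (-0.74, adjusted p = 0.0175). CCL3, CCL4 and CCL7 were at 0 in all 4 libraries. In all, 1 member was called higher and 1 lower, against 7.84% of all genes called, and in a fit of only these 4 libraries neither was (adjusted p = 0.159 for CCL2 and 0.168 for CCL20). That last fit called 0 of all 14585 genes. The TGF-β and knockout comparisons share the WT libraries. Treated cells are recorded at 72 h and the WT and knockout cells at 0 h. Time and TGF-β therefore cannot be told apart, here or in the direct comparison with the knockouts.

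Set directly against TGF-β-treated cells, 3 of 4 members were called higher in KO1 (22.7% of all genes called) and 4 of 4 in KO2 (16.9%). CCL2 and CCL20 were called in both, and the calls of CCL3 and CCL4 are descriptions. CCL2 was 5.43 times as high in KO1 (2.44 ± 0.24, adjusted p = 1.15e-06) and 2.45 times as high in KO2 (1.29 ± 0.24, adjusted p = 0.000704). The CCL20 differences were 9.69 ± 0.22 and 9.31 ± 0.22 on the log2 scale, from a treated level at about 3 reads per library. CCL3 was at least 36.7-fold higher in KO1, and KO2 exceeded the treated cells by at least 10.9-fold. CCL4 was at least 4.25-fold higher in KO2, a call that was lost without the first KO2 library or without either TGF-β library (adjusted p = 0.0519 for both of the latter).

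**Figure D2:**
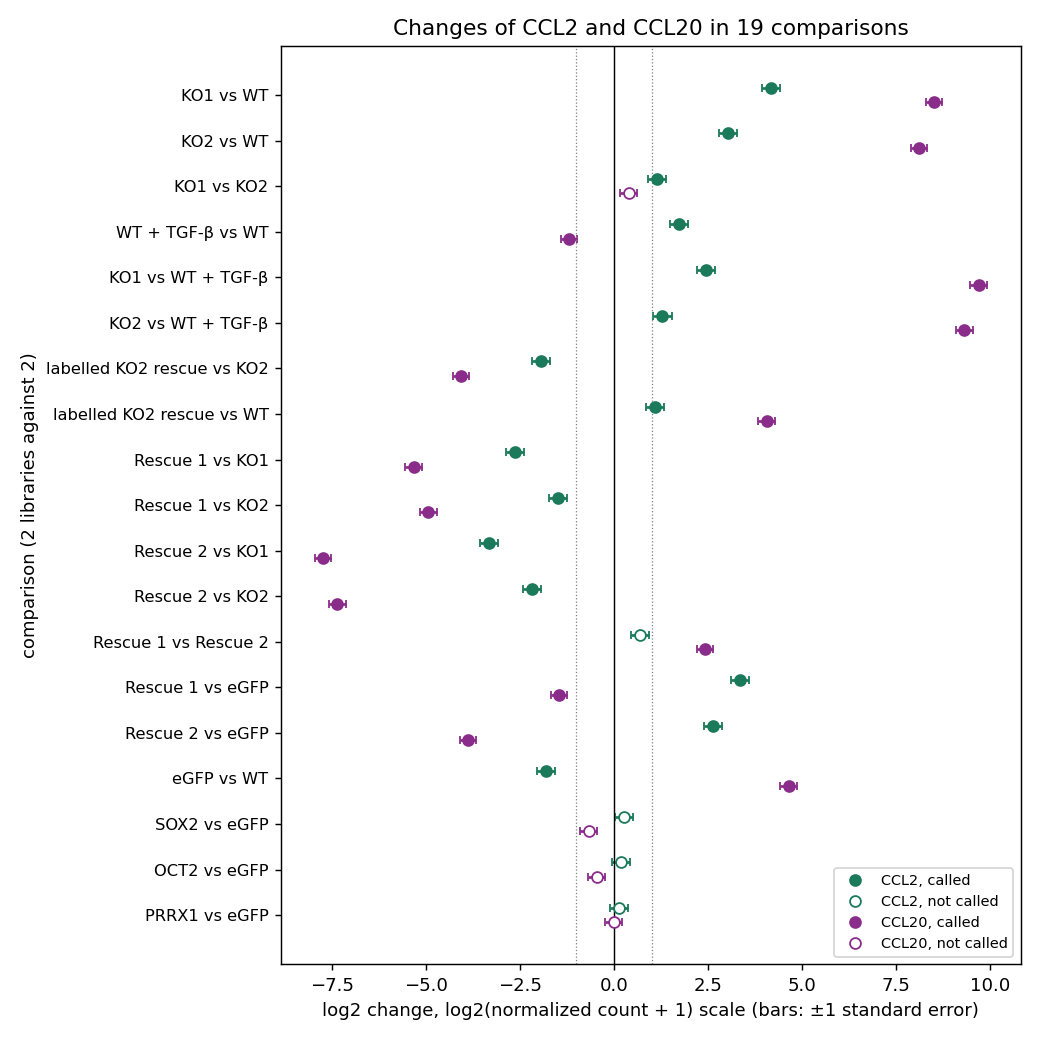
Log2 changes of CCL2 and CCL20 with 1 standard error in 19 comparisons of 2 libraries against 2, on the log2(normalized count + 1) scale, with filled points for called changes and dotted lines at a change of 1 in either direction. Both genes were called higher in KO1 and KO2 against WT, while in TGF-β against WT, eGFP against WT and the rescue clones against eGFP they were called in opposite directions.

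Cells labelled KO2 rescue, grown in the same serum as the knockouts, had lower levels than KO2 of all members tested. CCL20 had 153.6 and 175.9 normalized counts against 2757 and 2742 in KO2, and CCL2 had 2071 and 2208 against 8737 and 7623. Neither gene overlapped between the groups. CCL20 was 16.7 times lower (-4.06 ± 0.22, adjusted p = 1.98e-08) and CCL2 3.82 times lower (-1.93 ± 0.24, adjusted p = 7.1e-05). CCL3 had 6.33 and 0 normalized counts (-3.65 ± 0.82, adjusted p = 0.00983), a call lost without the labelled KO2 rescue library at 0 (-2.22, adjusted p = 0.141), without the first KO2 library (-3.19, adjusted p = 0.0924) or in a fit of only these 4 libraries (-3.65, adjusted p = 0.192). CCL4 was at 0 in both libraries, at least 4.34-fold lower (-3.86 ± 1.04, adjusted p = 0.0278), and this call was lost when any 1 of the 4 libraries was left out. All 4 members were called lower, CCL3 and CCL4 as descriptions only, where 4.17% of all genes were called.

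The same libraries stayed above WT for CCL20, at 18.3 times its level (4.06 ± 0.22, adjusted p = 5.64e-09). CCL2 was 2.00 times WT (1.10 ± 0.24, adjusted p = 0.00305), but the call was lost without the second WT library (0.55, adjusted p = 0.0175), with every library at the same total (0.94) and in a fit of only these 4 libraries (adjusted p = 0.196). Without the first WT library it was 1.65. CCL3 was not called (1.44 ± 0.82, adjusted p = 0.255) and CCL4 was at 0 on both sides. Against WT, then, 2 of 4 members were called higher, with 12.7% of all genes called. As SETD2 mRNA in these libraries was below that of KO2, these directions hold for the libraries by their label only.

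Rescue1 and Rescue2, with SETD2 mRNA far above WT, were compared with both knockout clones, since the sources do not make clear which clone they came from. Serum also differed, and its part cannot be told apart from that of the transgene. CCL2 had 2842 and 2974 normalized counts in Rescue1 and 1674 and 1913 in Rescue2. CCL20 had 88.2 and 89.7 in Rescue1 and 13.9 and 18.1 in Rescue2. Every rescue library lay below every knockout library for both genes.

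Against KO1, CCL20 was 40.4 times lower in Rescue1 (-5.32 ± 0.22, adjusted p = 1.25e-10) and 224 times lower in Rescue2 (-7.73 ± 0.22, adjusted p = 1.66e-12). CCL2 was 6.22 times lower in Rescue1 (-2.64 ± 0.24, adjusted p = 4.95e-07) and 10.1 times lower in Rescue2 (-3.33 ± 0.24, adjusted p = 3.88e-08). CCL3 was at 0 in all 4 rescue libraries, at least 28.7-fold lower in Rescue1 and at least 44.6-fold lower in Rescue2. CCL4 was at 0 apart from 0.927 in 1 Rescue2 library, and its differences from KO1 were not called (adjusted p = 0.0915 for Rescue1 and 0.178 for Rescue2). In each of these comparisons 3 of 4 members were called lower, CCL3 as a description only, with 24.8% of all genes called for Rescue1 and 24.4% for Rescue2.

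Against KO2, 4 of 4 members were called lower in Rescue1 (16.1% of all genes called) and in Rescue2 (15.3%), CCL3 and CCL4 as descriptions only. The log2 change of CCL20 was -4.93 ± 0.22 in Rescue1 and -7.35 ± 0.22 in Rescue2, and that of CCL2 was -1.49 ± 0.24 and -2.19 ± 0.24. CCL3 was at least 8.53-fold lower in Rescue1 and at least 13.2-fold lower in Rescue2. CCL4 was called in Rescue1 (-3.86 ± 1.04, adjusted p = 0.011) but not without the first KO2 library (-3.68, adjusted p = 0.0624). For Rescue2 its call (-3.38 ± 1.04, adjusted p = 0.0235) was lost when any 1 of the 4 libraries was left out. With about 1 read in Rescue2, CCL4 stood at 0.0341 times KO2, with a counting interval of 0.00084 to 0.212.

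The rescue clones differed from each other in CCL20. It was 5.56 times higher in Rescue1 than in Rescue2 (2.42 ± 0.22, adjusted p = 1.49e-05), and no library overlapped, though the call was lost in a fit of only these 4 libraries (adjusted p = 0.21). That last fit called 1 of all 14585 genes. CCL2 was 1.62 times higher, also without overlap, but was not called (0.70 ± 0.24, interval 0.19 to 1.21, adjusted p = 0.226). CCL3 was at 0 in both clones. CCL20 was the 1 member called, where 0.994% of all genes were called.

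Beside eGFP cells, which share their serum, the rescue clones had more CCL2 and less CCL20. CCL2 had 286.9 and 284.6 normalized counts in eGFP, and was 10.2 times higher in Rescue1 (3.34 ± 0.24) and 6.27 times higher in Rescue2 (2.64 ± 0.24). CCL20 had 247.2 and 246.0 in eGFP, and was 2.77 times lower in Rescue1 (-1.46 ± 0.22, adjusted p = 0.000203) and 15.4 times lower in Rescue2 (-3.88 ± 0.22, adjusted p = 1.24e-08). In each clone 1 member was called higher and 1 lower, with 12.8% of all genes called for Rescue1 and 11.1% for Rescue2.

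The eGFP vector control differed from WT, with more CCL20 and less CCL2. CCL20 was 27.3 times higher in eGFP than in WT (4.64 ± 0.22, adjusted p = 1.86e-09) and CCL2 3.74 times lower (-1.80 ± 0.24, adjusted p = 5.1e-05). The libraries of the groups did not overlap for either gene. The CCL2 change lay between -2.35 and -1.25 when 1 WT library was left out, the smaller without the first, and was not called in a fit of only these 4 libraries (adjusted p = 0.105). CCL3 was at 0 and 1.74 in eGFP and CCL4 at 0. Here 1 member was called higher and 1 lower, with 12.7% of all genes called, and serum, transduction and selection cannot be told apart.

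Ectopic SOX2, OCT2 and PRRX1, transcription factors given to WT cells, were set against eGFP in the same serum. CCL2 had 319.8 and 371.4 normalized counts with SOX2, 332.5 and 315.4 with OCT2, and 359.0 and 277.1 with PRRX1. CCL20 had 142.7 and 168.0 with SOX2, 209.6 and 153.2 with OCT2, and 256.0 and 233.2 with PRRX1. The SOX2 and OCT2 libraries were below both eGFP libraries for CCL20, and the PRRX1 libraries lay on either side of them. By limma neither CCL2 nor CCL20 was called with any factor, against 0.0206% of all genes for SOX2, 0.0343% for OCT2 and 0.0411% for PRRX1. CCL3 was at 0 with OCT2 and PRRX1, at most 0.902 with SOX2 and at most 1.74 in eGFP. CCL4 was at 0 apart from 0.805 in a SOX2 library. These levels are under the floor of 3 reads, so CCL3 and CCL4, though tested, left no room for a call. At an unadjusted p under 0.05 there was 1 member with SOX2 and 0 with OCT2 and PRRX1. That member was CCL20 with SOX2, at -0.67 ± 0.22 (95% interval -1.14 to -0.19, adjusted p = 0.551). The changes of CCL2 were 0.27 ± 0.24 with SOX2 (interval -0.24 to 0.78), 0.18 ± 0.24 with OCT2 (-0.33 to 0.69) and 0.14 ± 0.24 with PRRX1 (-0.36 to 0.65).

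**Figure D3:**
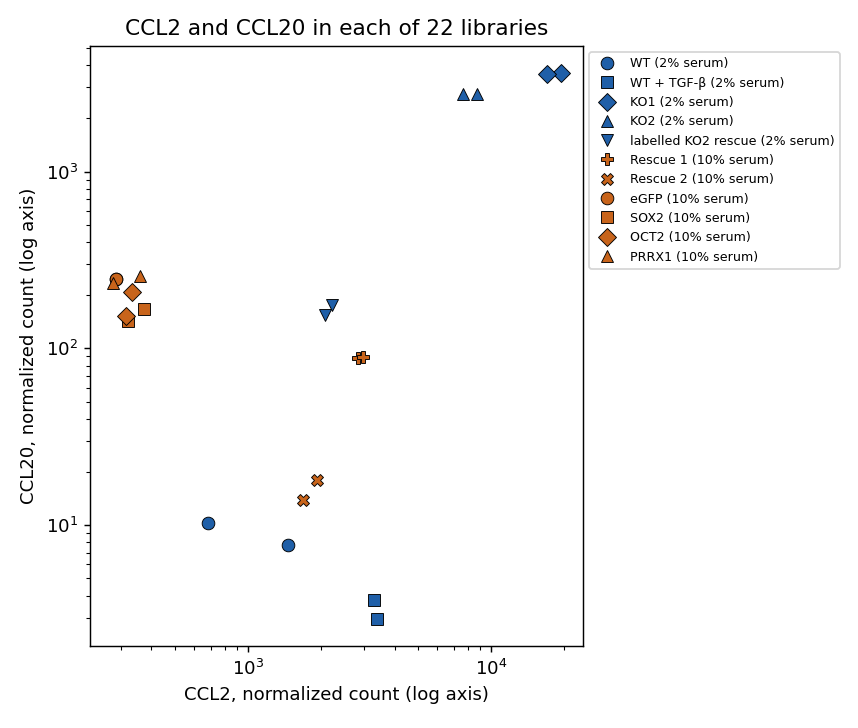
CCL20 against CCL2 in each of 22 libraries, both as normalized counts on log axes, with colour for serum and shape for group. The KO1 and KO2 libraries are high for both genes, while TGF-β-treated cells have CCL2 of 3284 and 3385 with CCL20 under 4 and eGFP cells have CCL2 of 284.6 and 286.9 with CCL20 of 246.0 and 247.2.

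The order of the groups differed between the 2 abundant members. By mean CCL2, the order from high to low was KO1, KO2, WT with TGF-β, Rescue1, labelled KO2 rescue, Rescue2, WT and then the 4 transduced WT groups, and only these 4 overlapped with a neighbour in the order. By mean CCL20 it was KO1, KO2, eGFP, PRRX1, OCT2, labelled KO2 rescue, SOX2, Rescue1, Rescue2, WT and WT with TGF-β. Among the CCL20 neighbours the libraries of eGFP and PRRX1, of OCT2 and labelled KO2 rescue, and of labelled KO2 rescue and SOX2 overlapped. KO1 and KO2 lead both orders, and WT with TGF-β stands next after them for CCL2 and last for CCL20.

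Per kilobase of the canonical transcript, on which levels of different genes can be compared, CCL2 was the highest member in every library. It reached 26037 and 22825 normalized counts per kilobase in KO1, where CCL20 reached 4317 and 4295 and CCL3 128 and 173. CCL20 made up 0.468% and 1.33% of the per-kilobase sum of the 5 members in WT and 0.0773% and 0.102% after TGF-β. In the knockouts this share was 14.1% and 15.7% for KO1 and 21.8% and 24.1% for KO2. Its share was 43.4% and 43.3% in eGFP and between 28.3% and 42.8% with SOX2, OCT2 or PRRX1. In the rescue clones it was 2.69% and 2.61% in Rescue1 and 0.730% and 0.835% in Rescue2. CCL3, CCL4 and CCL7 stayed under 1% in each library.

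**Figure D4:**
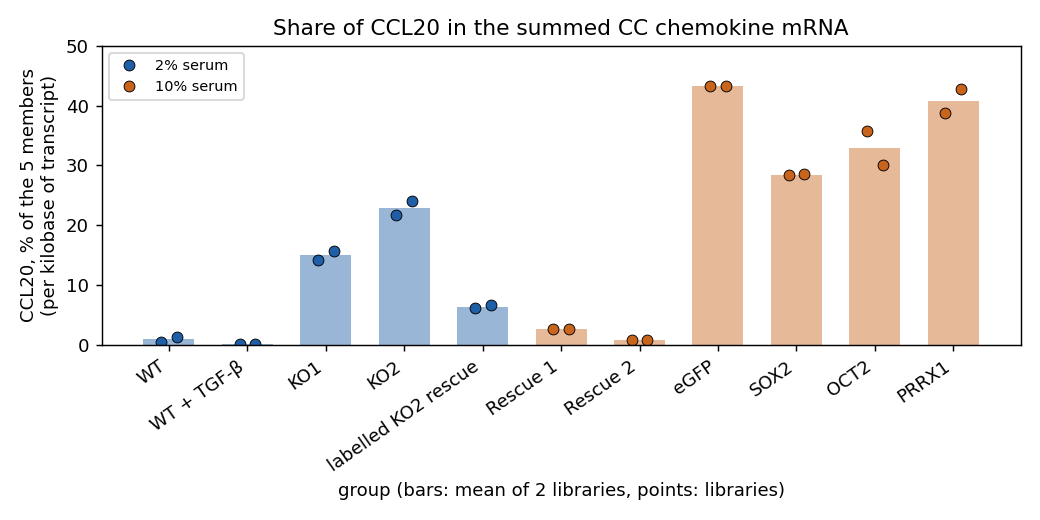
Share of CCL20 in the sum of the 5 CC chemokines per kilobase of transcript (percent, axis from 0), with a bar at the mean of 2 libraries and a point for each library, coloured by serum. The share is highest in eGFP at 43.4% and 43.3% and at most 1.33% in WT, WT with TGF-β and Rescue2.

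The other CC ligands were scarce in these cells. Of 23 listed, 14 had a row, 8 of these were at 0 in all libraries, and CCL28 alone passed the filter. CCL28, a mucosal ligand of CCR10, had 13.7 and 14.4 normalized counts in WT, 1.898 and 0 in KO1, and 0 and 2.81 in KO2. It reached 10 normalized counts only in libraries of WT, eGFP and PRRX1 cells and passed the filter through these, so its calls are descriptions. It was called lower than WT in KO1 (-3.15 ± 0.74, adjusted p = 0.00323), in KO2 (-2.95 ± 0.74), with TGF-β (-3.23 ± 0.74) and in labelled KO2 rescue (-2.29 ± 0.74). It was also called lower in both rescue clones, at 0 in all 4 libraries, than in eGFP at 9.03 and 12.4. CCL5, CCL8, CCL14, CCL15 and CCL22 were not analysed here.

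Few CC receptors were read. CCR8, CCR9 and ACKR1 were at 0 in every library, and CCR2 was above 0 in 1 library. The tested receptors were CCR6, CCR10 and CCRL2. CCR6, the receptor of CCL20, had 7.54 and 14.7 normalized counts in WT, 5.996 and 23.3 in KO1 and 16.98 and 21.5 in KO2, with log2 changes of 0.17 ± 0.87 in KO1 and 0.80 ± 0.87 in KO2 that were not called. CCRL2, which binds chemerin without signalling, was at 0 in WT and at 7.40 and 17.2 in KO1 (3.63 ± 0.86, adjusted p = 0.00362). It had 2.53 and 0 in KO2, which was not called (0.91 ± 0.86, adjusted p = 0.492), 17.3 and 13.1 in Rescue1 and 4.96 and 11.7 in Rescue2. The rescue clones thus overlapped with KO1 (0.38 ± 0.86 and -0.51 ± 0.86 against it), and Rescue1 was called higher than KO2 (3.10 ± 0.86, adjusted p = 0.0136). CCRL2 passed the filter only through KO1, Rescue1 and Rescue2, so its calls are descriptions too. CCR10 had 130.6 and 82.3 normalized counts in KO1, and against WT neither KO1 (1.48 ± 0.78) nor KO2 (-0.07 ± 0.78) was called. It was called lower in Rescue1 (-3.45 ± 0.78) and Rescue2 (-4.01 ± 0.78) than in KO1. Against KO2, Rescue2 was called lower (-2.45 ± 0.78) and Rescue1 was not (-1.89 ± 0.78). Labelled KO2 rescue was called lower than KO2 (-2.92 ± 0.78) and than WT (-3.00 ± 0.78). Neither rescue clone was called against eGFP.

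Genes that induce these ligands or feed back on NF-κB are given next, and their counts of calls stand beside 25.0% of all genes called in KO1 and 16.3% in KO2. Of 10 inducing cytokines 6 were tested, and against WT 3 were called higher and 1 lower in each of KO1 and KO2. IL1B, the secreted cytokine IL-1β, was higher by 13.46 ± 0.57 in KO1 and 10.32 ± 0.57 in KO2 on the log2 scale, and IL1A by 7.43 ± 0.19 and 6.42 ± 0.19. The alarmin IL33 was higher by 7.34 ± 0.86 in KO1, and LTB, a ligand of the lymphotoxin receptor, was lower in KO2 at -4.33 ± 0.56. Over all libraries IL1B ranged from 0 to 29431 normalized counts, IL33 from 0 to 287.6 (median 1.97) and LTB from 0 to 35.45 (median 0). IL33 and LTB were thus under the 10 normalized counts of the filter in most libraries, so their calls are descriptions. The size of a log2 change from or to a level near 0 depends on the pseudocount. In eGFP against WT, IL1B was 6.38 ± 0.57 and IL1A 3.99 ± 0.19 higher, and in labelled KO2 rescue against KO2 they were -4.37 ± 0.57 and -2.44 ± 0.19. The median log2 change of the 6 cytokines was 4.63 in KO1 and 3.28 in KO2, beside 0 for all genes. The counts and medians of this list include IL33 and LTB. TNF and IFNG were not analysed here, and IL17A was at 0 in every library.

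Of 14 receptors and adaptors of these signals, 2 were called higher and 2 lower in KO1, and 2 higher and 1 lower in KO2. IL1R1, the signalling receptor of IL-1, was higher by 4.95 ± 0.60 in KO1 and 4.05 ± 0.60 in KO2, and with TGF-β it was -4.44 ± 0.60. It was also called in eGFP against WT (1.95 ± 0.60) and in labelled KO2 rescue against KO2 (-4.17 ± 0.60). Those called lower than WT were TLR3 in KO1 (-1.61 ± 0.22) and TLR2 in KO1 (-1.07 ± 0.20) and KO2 (-1.55 ± 0.20). TLR4, which senses lipopolysaccharide, was higher by 2.18 ± 0.27 in KO1 and 2.78 ± 0.27 in KO2, and also by 1.40 ± 0.27 with TGF-β (adjusted p = 0.00181) and 1.74 ± 0.27 in eGFP. In labelled KO2 rescue against KO2 it was 0.21 ± 0.27, which was not called. Of 13 NF-κB subunits and feedback genes, 5 were called higher and 0 lower in KO1, and 3 higher and 1 lower in KO2. The NF-κB inhibitor TNFAIP3 was higher by 1.85 ± 0.21 in KO1 and 1.36 ± 0.21 in KO2. It was also called higher with TGF-β (1.01 ± 0.21) and in eGFP (1.47 ± 0.21), each against WT. In labelled KO2 rescue against KO2 it was -0.82 ± 0.21, which was not called. Of the 13 genes, 1 was called higher with TGF-β (7.84% of all genes called) and 3 in eGFP (12.7%), with 0 lower in either. Of 6 tested genes that act on chemokine mRNA decay, 2 were called higher and 1 lower in KO1 and 1 higher in KO2, which was ZC3H12A at 1.11 ± 0.25. ZC3H12A was also called higher with TGF-β (1.11 ± 0.25) and in eGFP (1.72 ± 0.25), where 1 and 2 of the 6 were called higher and 0 lower. The medians of these 3 lists against WT were -0.08, 0.53 and -0.25 in KO1 and 0, 0.28 and -0.31 in KO2, in the order given, beside 0 for all genes. With TGF-β they were -0.14, 0.58 and -0.1, and in eGFP -0.14, 0.79 and -0.06, also against WT.

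Markers of other cell types moved with some of these groups. The leukocyte marker sum was 397.8 and 337.8 normalized counts in KO1 and 213.2 and 188.2 in KO2, against 221.1 and 126.5 in WT and 314.7 and 248.5 with TGF-β. In labelled KO2 rescue it was 46.4 and 21.1, and in eGFP 182.6 and 109.0. Of its 4 tested genes, 1 was called higher in KO1, 0 in KO2, 2 with TGF-β and 1 in eGFP, each against WT, and 1 was called lower in labelled KO2 rescue against KO2. CD14, a co-receptor for lipopolysaccharide, was called higher in KO1 (2.71 ± 0.70, adjusted p = 0.00611), with TGF-β (2.28 ± 0.70, adjusted p = 0.0349) and in eGFP (2.80 ± 0.70, adjusted p = 0.00778). Its median over all libraries was 4.05 normalized counts, under the 10 of the filter, so these calls are descriptions. CSF1R, the receptor of a macrophage growth factor, was called higher with TGF-β (3.15 ± 0.87, adjusted p = 0.0206), and the macrophage marker CD68 was the one called lower in labelled KO2 rescue (-3.98, adjusted p = 0.0184). The endothelial sum was 126.5 and 149.2 in KO1 and 157.1 and 152.0 in KO2, against 4.99 and 40.3 in WT, and 1 of its 4 tested genes, KDR, was called higher in both clones (6.41 ± 0.80 and 6.68 ± 0.80). KDR ranged from 0 to 145.3 normalized counts over all libraries, so the size of its change depends on the pseudocount. With a median of 0.877, under the 10 of the filter, its calls are descriptions. CDH5, an endothelial cadherin, was at -2.12 ± 1.39 in each clone and VWF at -0.64 ± 1.12 in KO1 and 0.46 ± 1.12 in KO2, and neither was called. The tubule epithelial sum was 13177 and 12358 in KO1 and 18396 and 17720 in KO2, against 24023 and 25067 in WT. Of its 10 tested genes, KO1 had 2 called higher and 3 lower, and KO2 had 1 higher and 2 lower. CUBN, an endocytic receptor of the proximal tubule, was higher by 3.30 ± 0.98 in KO1 and 2.83 ± 0.98 in KO2, and PAX8 by 1.13 ± 0.14 in KO1. EPCAM was lower at -3.51 ± 0.12 and -1.74 ± 0.12, KRT7 at -2.14 ± 0.71 and -2.88 ± 0.71, and the abundant keratin KRT8 at -1.92 ± 0.07 in KO1. The part of these markers in the chemokine levels was not tested.

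The genes whose profile over the 11 groups was most like that of each member were found by the root mean square difference of centred group means of log2(normalized count + 1). For CCL2 they were PDGFRA (0.636), PCDHGC5 (0.756) and CLSTN2 (0.804). Levels of these genes are group means of log2(normalized count + 1) turned back to counts, unlike the arithmetic means given for the members above. PDGFRA, a growth factor receptor of mesenchymal cells, had 4.8 normalized counts in WT, 91.5 with TGF-β, 179.4 in KO1, 62.3 in KO2 and 1.8 in eGFP. For CCL20 they were the gene ENSG00000281123 (0.945), the bradykinin receptor BDKRB2 (1.03) and GCHFR (1.15). By the same kind of mean BDKRB2 had 201.8 in WT, 77.6 with TGF-β, 21403 in KO1, 7382 in KO2 and 2042 in eGFP. The nearest to CCL3 were DAZL, HTRA3 and C8A (0.478 to 0.583) and to CCL4 MASP1, EBF1 and PTPRZ1 (0.466 to 0.506). By this mean each had at most 5.6 normalized counts outside the knockout groups. Between members the difference was 2.98 for CCL2 and CCL20, the most unlike pair of the tested members, and 1.35 for CCL3 and CCL4, the most alike.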

How the data were processed

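RNA was measured in 22 libraries (TruSeq Stranded mRNA, paired-end). The authors quantified reads with Salmon (version 1.9.0 in the submitters' processing notes) on Ensembl cDNA of GRCh38, and DESeq2 1.26.0 is also named there. The deposited values are on a log2 scale, from 11.32 to 21.28, and were read as variance-stabilized normalized counts because all libraries share the lowest value. The transformation was inverted to normalized counts. In each library low values cluster at multiples of 1 step (0.82 to 1.572 normalized counts), which was taken as 1 read, but 26.4% to 41% of low values lie within 0.1 of a whole multiple, so whole reads were not recovered and no count test was run. The design had assumed normalized counts, and its test was kept.

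Groups came from the labels. Differences were tested with limma 3.58.1 (R 4.3.3, variance trend) on log2(normalized count + 1) in 1 fit of 22 libraries with a mean per group, over the 14585 genes that reached 10 normalized counts in 2 or more libraries, with Benjamini-Hochberg adjustment per comparison over all of them. Calls needed a log2 change over 1 in size and an adjusted p below 0.05. The total of normalized counts per library was 11674491 to 16758645. The procedure was tested on simulated data. Symbols (33878 of 36859 genes), positions and transcript lengths came from GENCODE 44, and promoters from RefSeq. Figures used matplotlib 3.10.9, and values were handled in Python 3.11.15 (pandas 2.3.3, numpy 2.4.6 and, for counting intervals, scipy 1.17.1) and in R with the data.table package (version 1.17.8). The 5 members and the gene lists were chosen with earlier results of these data known. Named besides them are CC ligands and receptors, genes of the other lists (mostly called ones with a large absolute log2 change), and the 3 genes nearest in profile to each tested member. The alternatives tried were other pseudocounts (0.5 and 5), other filters (none, or a mean of 50 normalized counts), equal totals, quantile normalization, the deposited log2 values, only the libraries compared, a replicate block, and each library left out. The result of 1 of the listed genes is not reported here.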

Additional observations from a re-analysis of the deposited data

Results flagged for a closer look

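Both pairs of clones differed in 1 member by a test of the difference itself (limma, adjusted p over all 14585 genes). The rise of CCL2 over WT was larger in KO1 than in KO2 by 1.15 on the log2 scale (adjusted p = 0.00403), with 19293 and 16913 against 8737 and 7623 normalized counts. The level of CCL20 was higher in Rescue1 than in Rescue2 by 2.42 on the log2 scale (adjusted p = 1.49e-05), with 88.2 and 89.7 against 13.9 and 18.1 normalized counts, and the same libraries gave a difference of 0.70 for CCL2 that was not called. Neither call held on the deposited log2 values (0.84 for CCL2 and 0.15 for CCL20) or in fits of only the libraries compared. Such fits called 1 of all 14585 genes for each pair. The call of CCL2 was also lost with equal totals (0.96) and with quantile normalization (0.99). No group had enough libraries for a test of outlying samples.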

How the results depend on the processing

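The number of members called kept within 1.5 times its value for 216 of 247 combinations of a comparison and an alternative, and 31 moved further. With a mean of at least 50 normalized counts, CCL3 and CCL4 were not tested and 2 members were called in place of 4 in KO2 against WT, KO2 against TGF-β, labelled KO2 rescue against KO2 and both rescue clones against KO2. On the deposited log2 values, whose scale compresses low levels, 2 were called in KO2 against WT, in labelled KO2 rescue against KO2 and in Rescue2 against KO2, 1 in KO2 against TGF-β and in Rescue1 against KO2, and 0 in KO1 against KO2, TGF-β against WT, labelled KO2 rescue against WT, Rescue1 against Rescue2, both rescue clones against eGFP, and eGFP against WT. Where 0 members were called, all 14585 genes gave 23, 31, 46, 1, 44, 36 and 36 calls, in the order listed. In the other comparisons listed they gave 35 to 116. With a pseudocount of 5 the count was 2 in KO1 against KO2 and 1 in TGF-β against WT. Equal totals gave 0 in KO1 against KO2 and 1 in labelled KO2 rescue against WT, and quantile normalization gave 0 in KO1 against KO2. In fits of only the libraries compared the count was 0 in KO1 against KO2, TGF-β against WT and Rescue1 against Rescue2, and 1 in labelled KO2 rescue against WT and eGFP against WT. It was 3 in labelled KO2 rescue against KO2, without CCL3. Over all 14585 genes these fits called 1 in KO1 against KO2, 0 in TGF-β against WT and 1 in Rescue1 against Rescue2. A lost call in these comparisons therefore says little about a member. Such a fit has 2 residual degrees of freedom. Leaving out 1 library gave 1 to 2 calls in KO1 against KO2, 2 to 3 in labelled KO2 rescue against KO2, 1 to 3 in labelled KO2 rescue against WT and 3 in Rescue2 against KO2, and a group left with 1 library was assumed to vary like the others. Leaving out 1 library turned or ended a direction for CCL4. It ranged from -3.86 to 0.79 in KO1 against KO2 and from 0 to 4.65 in KO1 against WT and against TGF-β. The range was -4.65 to 0 in Rescue1 against KO1 and -4.17 to 0.47 in Rescue2 against KO1. These extremes were set by the first and second KO1 libraries. In PRRX1 against eGFP, leaving out 1 library moved CCL2 between -0.04 and 0.33 and CCL20 between -0.08 and 0.05, and with equal totals CCL20 stood at 0. The cause of these changes was not tested where none is given. Equal totals also moved the share of higher calls among all genes from 47.7% to 27.9% in KO1 against WT and from 51.9% to 76.8% in Rescue2 against KO1, and on the deposited log2 values 178 genes were called in KO1 against WT in place of 3653. With the replicate number as a block, no call of a member changed (CCL2 in KO1 against WT stayed at 4.18, and 3 members were called there). Same-numbered libraries did not deviate together over the tested genes (correlations of -0.08 to 0.05 over 55 pairs of groups). This does not show whether samples with the same number were handled together. Depth limits CCL3, CCL4 and CCL7, whose levels outside the knockouts are at or under 3 reads per library in all but 1 library, labelled KO2 rescue, where CCL3 had about 6.13 reads.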
